A study of Oryza sativa Japonica Group with 6 samples.

Results

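The seed allergen genes of rice chromosome 7 are a cluster of neighbouring genes that encode small, cysteine-rich proteins of the alpha-amylase/trypsin inhibitor family. All 7 genes chosen by their Rice Annotation Project (RAP) gene IDs were present among the 93655 features of the deposited table, and all 7 passed the filter on low values. They are OS07G0213800, OS07G0214100, OS07G0214300, OS07G0214600, OS07G0215500, OS07G0216600 and OS07G0216700. RNA was measured in endosperm, which stores the starch of the seed, at 7 days after pollination. It compared 3 libraries labelled wild type (WT) with 3 labelled nf-yc11 mutant, and the series title sets the mutant against ZH11, a japonica rice. The labels give no lesion, allele count or number of lines for nf-yc11, whose name is that of an NF-Y subunit, and they do not say that the libraries of a group came from separate plants. The error behind each p-value is therefore that between libraries, and it may be technical.

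Proteins of this family accumulate in the protein bodies of the cereal endosperm along with the glutelins and prolamins, which are the bulk of its stored protein. Relatives in other cereals inhibit alpha-amylases or trypsin-like proteases of insects, and several rice members are known as allergens of the grain. NF-Y is a complex of NF-YA, NF-YB and NF-YC subunits that is known to bind CCAAT boxes in promoters. A RefSeq gene table (assembly ASM3414082v1) lists 4 genes with names of this family on chromosome 7, which are RAG1 (also RA17), RAG2 (also RA14), RA16 and RA5. That table holds none of the RAP IDs of the members, so no symbol was assigned to a member and the IDs are used throughout.

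Values are FPKM, read numbers scaled to the length of the gene and to the total of the library, so levels can be compared between the genes. The totals behind the values ranged from 14593215 to 21984785 reads. The members rested on 10690 to 204009 reads each in a library, and the counting error of a single value, as a coefficient of variation, was at most 0.967%. The feature paired with NF-YC11 from general knowledge of rice genes, OS05G0304800, was not in the gene table by that name. It stood at 125, 124 and 129.6 FPKM in WT replicates 1 to 3 and at 106, 111 and 112 FPKM in the libraries labelled nf-yc11 (log2 change −0.20 ± 0.04 SE, adjusted p = 0.0037, limma). Another NF-YC gene, singled out after its values were seen and paired with NF-YC12 from general knowledge alone, was OS10G0191900. It had 741, 762 and 762 FPKM in WT and 191, 192 and 194 FPKM in nf-yc11, a 3.93-fold fall (log2 change −1.97 ± 0.02 SE, adjusted p = 1.92e-07, limma). The labels do not give the locus or the lesion of the mutant, so neither level checks them.

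The 7 genes did not move together, and the ratios between them changed less, in median size, than those between other abundant genes. OS07G0215500, OS07G0214600 and OS07G0214100 were higher in nf-yc11, by 39.4%, 23.7% and 8.99% of the WT mean. OS07G0216600 and OS07G0214300 were lower, with changes of −21.5% and −18.9%. OS07G0213800 and OS07G0216700 did not pass the test, with differences of −3.30% and 3.11%. The cluster was 1.08-fold more abundant as a sum. Without OS07G0215500, the member with the largest rise, the sum of the others was lower on the deposited scale but not with quantile normalization.

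**Figure D1:**
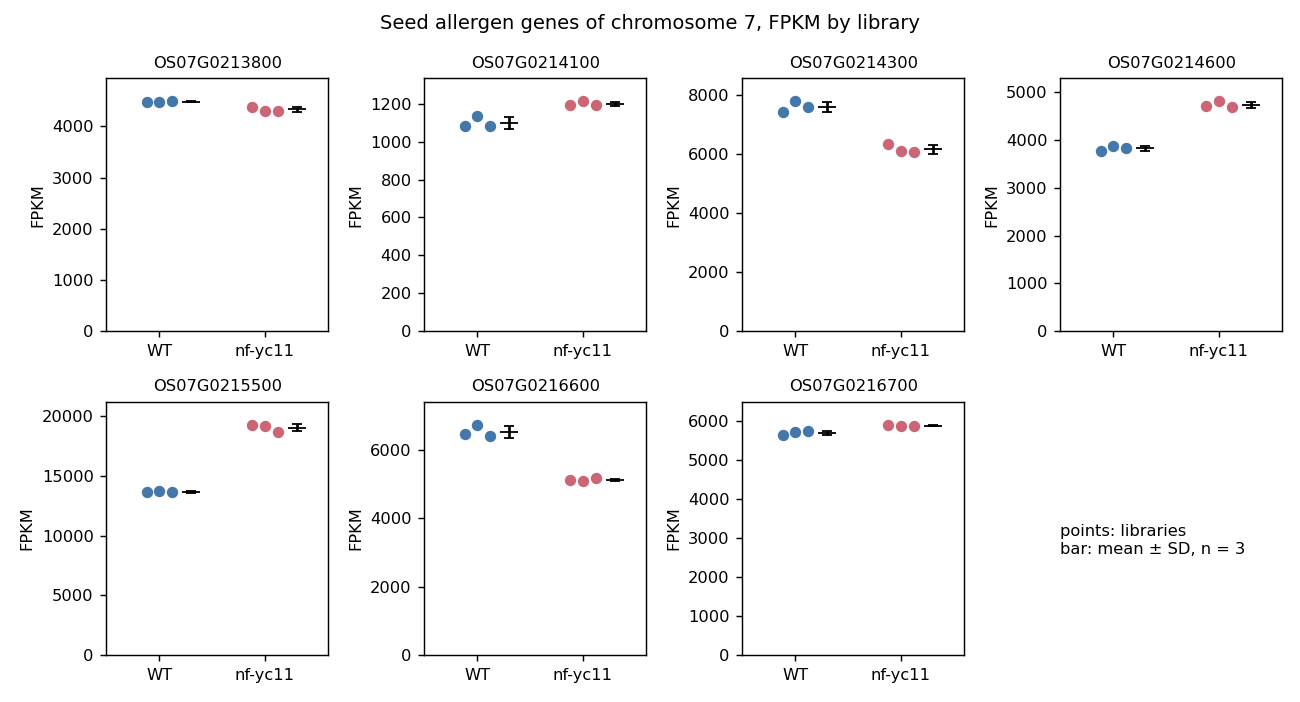
FPKM of each seed allergen gene (vertical axes from 0) in the 3 WT and 3 nf-yc11 libraries, with points for libraries and bars for mean ± SD (n = 3). The groups do not overlap for any of the 7 genes: OS07G0215500 lies near 13682 FPKM in WT and near 19073 FPKM in nf-yc11, whereas OS07G0216600 goes from 6530.0 to 5124 FPKM.

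The test was limma on log2(FPKM + 1) over the 22093 features that averaged 1 FPKM or more, with Benjamini-Hochberg adjustment and a threshold of 0.05. In it 49.1% of all tested features were called, 29.8% higher and 19.3% lower. With TMM factors in place of the deposited scaling, the split over all features was 5411 higher and 5313 lower. Of the 7 members, 3 were called higher, 2 lower and 2 were not called, and with TMM factors 2 were higher and 3 lower. Features as abundant as the members were called more often: 81% of the 84 features that averaged 1000 FPKM or more, 42.9% higher and 38.1% lower. The 84 include the 7 members. The members' share of 71.4% lay between these backgrounds. The median log2 change of the 7 members was 0.04, beside 0.06 over all features tested and 0.01 over the abundant ones. Without regard to sign the medians were 0.30, 0.26 and 0.35.

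OS07G0215500 was the most abundant member and changed most. WT replicates 1 to 3 stood at 13668, 13752 and 13625 FPKM and nf-yc11 replicates 1 to 3 at 19276, 19210.2 and 18734 FPKM. All nf-yc11 libraries lay far above all WT libraries, and the 3 libraries of each group were close to each other. The mean was 13682 ± 64.5 FPKM in WT and 19073 ± 296 in nf-yc11 (SD, n = 3, as for all means that follow), a log2 change of 0.48 ± 0.02 SE (adjusted p = 1.12e-05, limma). By mean FPKM the gene was the 6th most abundant of all features in WT and the 4th in nf-yc11. Among the 84 abundant features, 27 had a larger change in size.

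OS07G0214600 was the other member with a clear rise. It was measured at 3775, 3879 and 3842 FPKM in WT and at 4712, 4809.5 and 4697 FPKM in nf-yc11. The groups were separated by several times the distance between libraries of a group. The mean went from 3832 ± 52.7 to 4739 ± 61.2 FPKM (log2 change 0.31 ± 0.02 SE, adjusted p = 7.61e-05, limma). Both rises kept their direction and call with size factors, TMM factors, quantile normalization and the total without the 100 most abundant features. With these scalings the log2 change of OS07G0215500 was 0.23 to 0.42, below the 0.48 of the deposited scale. That of OS07G0214600 was 0.23 to 0.71.

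OS07G0214100, the least abundant member, had 1081, 1135 and 1082 FPKM in WT and 1192, 1212 and 1191 FPKM in nf-yc11. All nf-yc11 libraries were above all WT libraries, of which WT replicate 2 was the nearest to them. Its mean rose from 1099 ± 31.1 to 1198 ± 12.1 FPKM (log2 change 0.12 ± 0.03 SE, adjusted p = 0.00851, limma). This call depended on the scaling: with TMM factors the log2 change was 0.05 (adjusted p = 0.214, limma), and with quantile normalization it was −0.07.

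OS07G0214300 was the second in abundance in both groups. WT libraries were at 7417, 7776 and 7587 FPKM and nf-yc11 libraries at 6319, 6098 and 6051 FPKM. Every nf-yc11 library was below every WT library. The mean fell 1.23-fold, from 7593 ± 180 to 6156 ± 144 FPKM (log2 change −0.30 ± 0.03 SE, adjusted p = 2.04e-04, limma). With quantile normalization the change was −0.01 and the call was lost (adjusted p = 0.508, limma).

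OS07G0216600 fell by a similar amount. It stood at 6459, 6726 and 6404 FPKM in WT and at 5106, 5098 and 5168 FPKM in nf-yc11. The nf-yc11 libraries were close to each other, and all were lower than any WT library. The mean fell 1.27-fold, from 6530.0 ± 172 to 5124 ± 38.3 FPKM (log2 change −0.35 ± 0.02 SE, adjusted p = 7.81e-05, limma). Its direction turned only with quantile normalization, among the scalings tried (log2 change 0.14).

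OS07G0216700, which is next to OS07G0216600 in number, did not fall with it. Its WT libraries were at 5639, 5723 and 5728 FPKM and its nf-yc11 libraries at 5892, 5872 and 5858 FPKM. The groups did not overlap but the gap was small, and the difference missed the threshold (log2 change 0.04 ± 0.02 SE, 95% confidence interval −4.3e-05 to 0.089, adjusted p = 0.0901, limma). Its sign depended on the scaling, with −0.03 for TMM factors and 0.38 for quantile normalization.

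OS07G0213800, the first member by number, was at 4474, 4476 and 4489 FPKM in WT and at 4382, 4302 and 4310.3 FPKM in nf-yc11. Each nf-yc11 library was slightly below each WT library. The log2 change of −0.05 ± 0.02 SE did not pass (95% confidence interval −0.094 to −0.0033, adjusted p = 0.0728, limma). With TMM factors it did, at −0.13 (adjusted p = 0.00191, limma), and with quantile normalization the sign turned to 0.09.

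**Figure D2:**
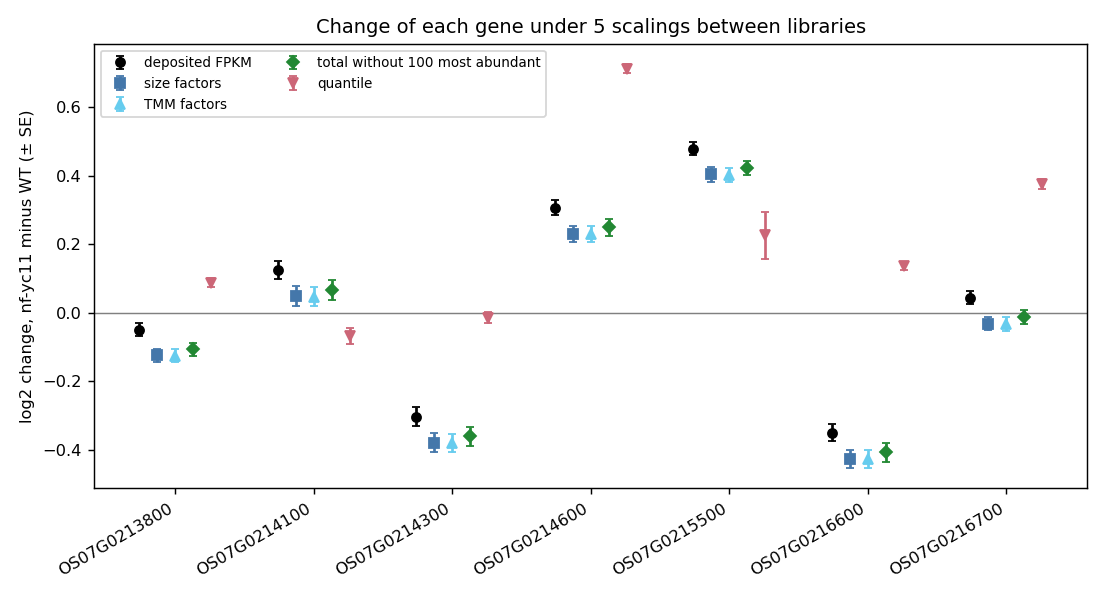
Log2 change of each gene between nf-yc11 and WT (vertical axis, points ± SE from limma) under the deposited scaling and 4 others. With size factors, TMM factors or the total without the 100 most abundant features, all 7 genes shift down together and OS07G0216700 changes sign. With quantile normalization the order of the genes changes and OS07G0213800, OS07G0214100 and OS07G0216600 change sign.

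The groups did not overlap for 7 of 7 members, and the same was true of 59.7% of all tested features, 61.5% of those of chromosome 7 and 82.1% of the abundant ones. At the scale of single libraries, WT replicate 2 was the highest WT library for 5 of the 7 members and WT replicate 1 the lowest for 5. In nf-yc11, replicate 1 was the highest for 4 members and replicate 3 the lowest for 5. The coefficient of variation between libraries was 0.178% to 2.83% in WT and 0.289% to 2.33% in nf-yc11. With so few libraries in a group no correlation between members was computed.

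The levels of the copies could be ranked in both groups. In WT the order was OS07G0215500, OS07G0214300, OS07G0216600, OS07G0216700, OS07G0213800, OS07G0214600 and OS07G0214100, and no neighbours in this order had overlapping libraries. In nf-yc11, OS07G0216700 stood above OS07G0216600, and OS07G0214600 stood above OS07G0213800. No neighbours in that order overlapped either. The lead of OS07G0215500 over OS07G0214300 went from 1.80-fold in WT to 3.10-fold in nf-yc11.

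Comparing genes within a library removes the scaling between libraries by a common factor. As a share of the summed FPKM of the 7 genes, OS07G0215500 went from 31.9% ± 0.257 to 41.0% ± 0.266. OS07G0214300 went from 17.7% ± 0.226 to 13.2% ± 0.212, and OS07G0216600 from 15.2% ± 0.249 to 11.0% ± 0.185. OS07G0214600 went from 8.93% ± 0.0532 to 10.2% ± 0.135. OS07G0213800 was at 10.4% ± 0.124 and 9.32% ± 0.0739, and OS07G0216700 at 13.3% ± 0.116 and 12.6% ± 0.0871. For these 6 genes the libraries of the groups did not overlap (exact two-sided permutation p = 0.1 for each, 0.117 after Benjamini-Hochberg adjustment over the 7 genes), and p = 0.1 is the smallest that 3 against 3 libraries allow. OS07G0214100 had a share of 2.56% ± 0.0439 and 2.58% ± 0.0307, and its groups overlapped (exact permutation p = 0.7). Shares have a fixed total, so the rise of OS07G0215500 lowers those of the others. The share of OS07G0216700 was lower in nf-yc11 although its mean FPKM was 3.11% higher. The count of 6 genes has no background from other sets of genes here.

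**Figure D3:**
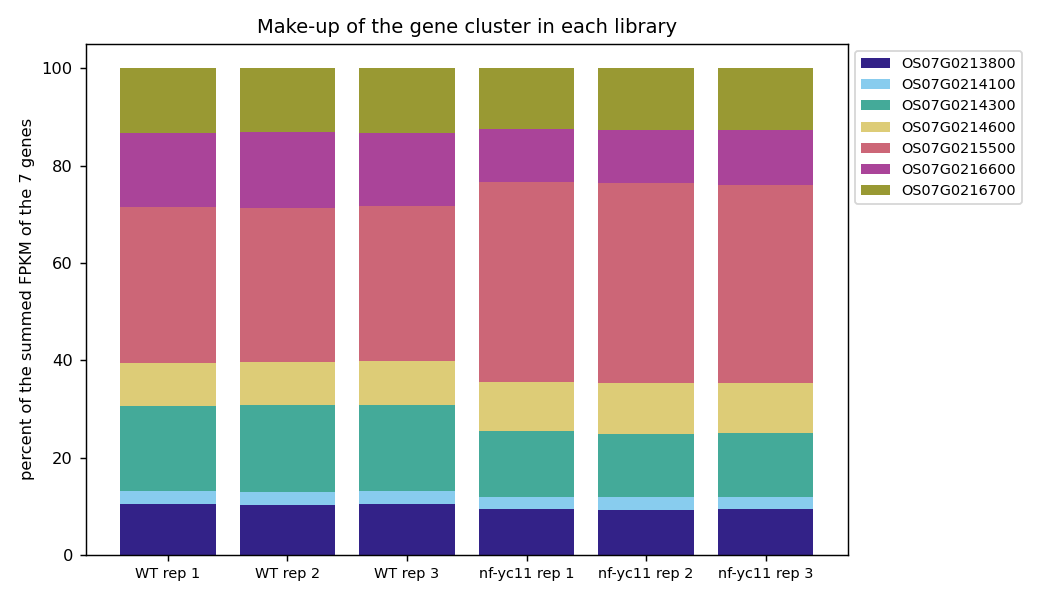
Stacked bars of the share of each gene in the summed FPKM of the 7 genes (vertical axis, percent) in each of the 6 libraries. The band of OS07G0215500 takes 31.6% to 32.2% in WT libraries and 40.7% to 41.2% in nf-yc11 libraries.

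Of the 21 ratios between members, 20 had groups that did not overlap (exact two-sided permutation p = 0.1 each, 0.105 after adjustment over the 21 ratios). Among the 2926 ratios between the 77 other features that averaged 1000 FPKM or more, a background added after the values had been seen, 87.1% did not overlap either. The median size of the log2 difference was 0.35 for ratios between members and 0.49 for those between the other features. The exception among the members was OS07G0214300 over OS07G0216600, the members that fell: the ratio was 1.16 in WT and 1.20 in nf-yc11, a log2 difference of 0.05 ± 0.03 SE (exact permutation p = 0.2). These genes are not adjacent by number, since OS07G0214600 and OS07G0215500 lie between them. The members that rose most did differ: the ratio of OS07G0214600 to OS07G0215500 went from 0.280 to 0.248, a log2 difference of −0.17 ± 0.02 SE. The widest divergence was that of OS07G0215500 over OS07G0216600, from 2.10 to 3.72 (log2 difference 0.83 ± 0.03 SE). Genes next to each other by number diverged as well. OS07G0214300 over OS07G0214600 went from 1.98 to 1.30, and OS07G0216600 over OS07G0216700 from 1.15 to 0.872.

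Relative to OS07G0215500 the 6 other members were all lower in nf-yc11, with log2 changes from −0.17 for OS07G0214600 to −0.83 for OS07G0216600. That direction follows from the choice of the reference, since OS07G0215500 had the largest rise of the 7.

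The joint level of the cluster was measured next. The summed FPKM of the 7 genes was 42513, 43468 and 42758 in WT and 46879, 46601 and 46008 in nf-yc11, so the groups did not overlap. The mean went from 42913 ± 496 to 46496 ± 445 (exact two-sided permutation p = 0.1, the smallest possible). As a part of all summed FPKM the cluster made up 4.62% ± 0.0523 in WT and 4.86% ± 0.0635 in nf-yc11. The 3 members called higher differed by 6398 FPKM between them and the 2 called lower by −2844 FPKM. Without OS07G0215500 the other 6 genes summed to 29231 ± 444 FPKM in WT and 27423 ± 167 in nf-yc11 (exact permutation p = 0.1), and with quantile normalization the sign of this difference turned. OS07G0215500 alone rose by 5392 FPKM and the whole sum by 3583 FPKM, so the lower rest follows from the choice of the gene left out. On a log2 scale the rise of the whole sum was 0.12, and it was 0.04 with size factors or TMM factors and 0.22 with quantile normalization.

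**Figure D4:**
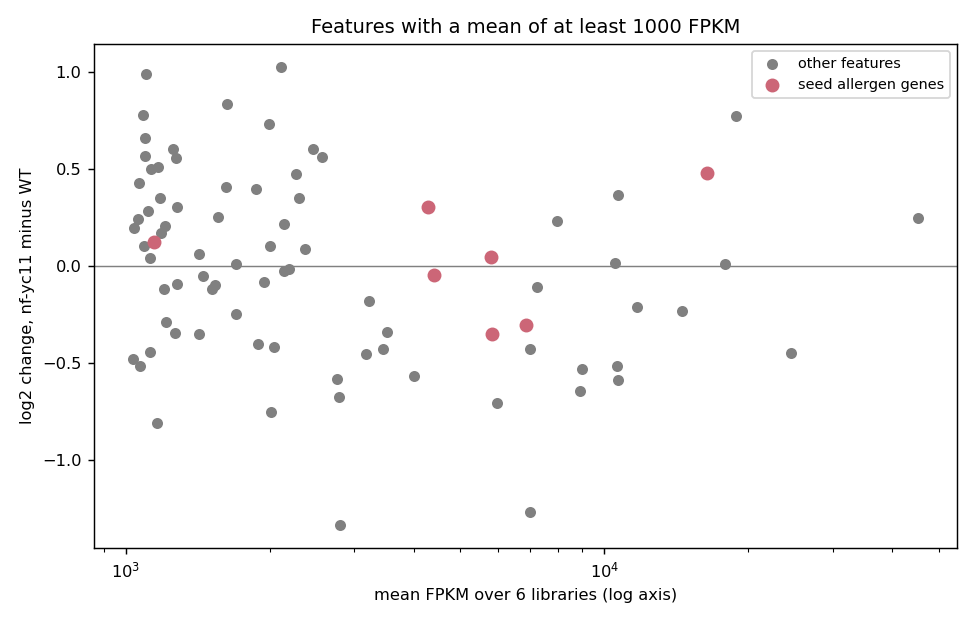
Log2 change between nf-yc11 and WT (vertical axis) against mean FPKM (log axis) for the 84 features that averaged 1000 FPKM or more, with the seed allergen genes in red. The 7 genes lie on both sides of 0, from −0.35 to 0.48 on the deposited scale, within the range of the other abundant features; the sign of 4 of them depends on the scaling.

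The genes around the cluster were taken from the numbers of their RAP IDs, which follow the order along the chromosome. Of the 4 IDs that lie between members, 3 were at 0 FPKM in all libraries. The remaining ID, between OS07G0214600 and OS07G0215500, was low beside the members, at 16.1, 17.5 and 19.0 FPKM in WT and 20.3, 20.4 and 21.5 FPKM in nf-yc11. It passed the test with a log2 change of 0.23 (adjusted p = 0.0244, limma), but not with any of the 4 other scalings (adjusted p = 0.0611 to 0.101) or without WT replicate 1 (0.0643), WT replicate 2 (0.0636) or nf-yc11 replicate 3 (0.0787). Among the 20 tested genes on the flanks, 10 on each side, 9 were lower, 3 higher and 8 not called, with a median log2 change of −0.15. Over the chromosome 7 genes tested, 50.8% were called, 30.1% higher and 20.6% lower.

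The nearest tested gene before the cluster, OS07G0213600, had WT libraries at 684, 539 and 452 FPKM and nf-yc11 libraries at 306, 336 and 321 FPKM. The WT libraries were widely spread but all above the nf-yc11 libraries (log2 change −0.78 ± 0.14 SE, adjusted p = 0.0035, limma). After the cluster, OS07G0220000 was at 2461, 2578 and 2531 FPKM in WT and at 1448, 1515 and 1530.3 FPKM in nf-yc11 (log2 change −0.75 ± 0.03 SE, adjusted p = 9.89e-06, limma). Both had larger falls on the deposited scale than any member. The 3 flanking genes called higher, with log2 changes of 0.50 to 0.55, likewise rose more than any member on that scale. OS07G0220000 was also in the list of prolamins.

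**Figure D5:**
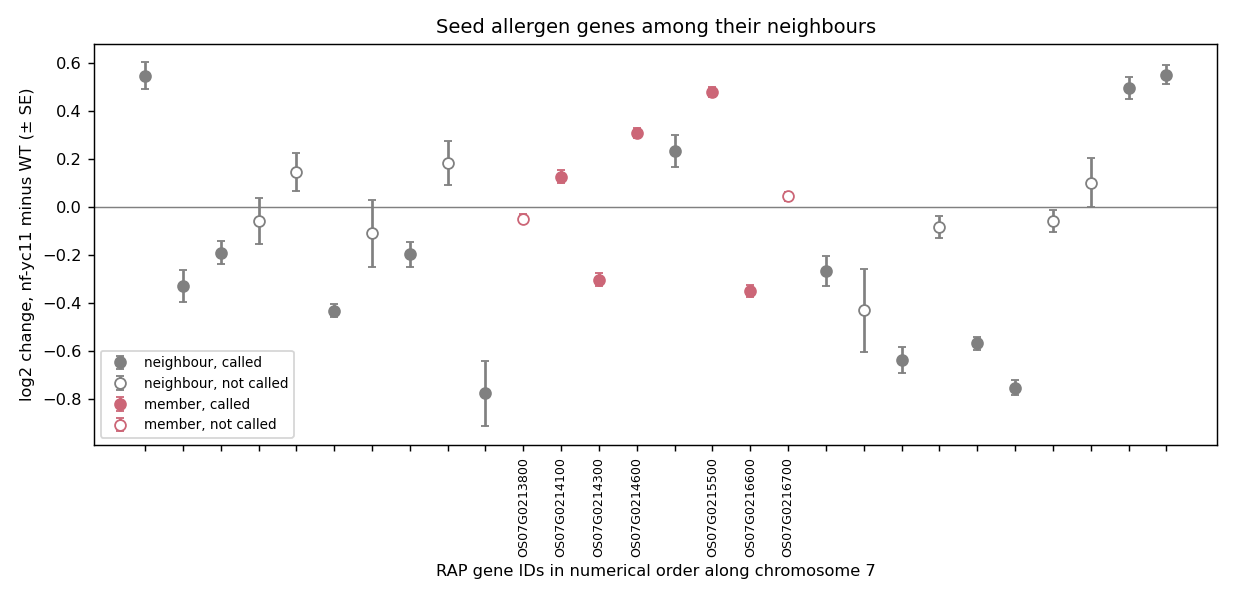
Log2 change between nf-yc11 and WT (vertical axis, ± SE from limma) for the members in red and the 21 tested neighbours in grey, in numerical order of RAP IDs, with filled points for features called at an adjusted p under 0.05. Members of both directions are interspersed within the cluster, though the largest rises, OS07G0214600 and OS07G0215500, are of consecutive members. The members that fell, OS07G0214300 and OS07G0216600, have risen or uncalled members on either side. With quantile normalization OS07G0216600 is above 0.

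The other storage protein genes were described from lists. All 10 glutelin genes listed were called lower, with a median log2 change of −0.59, and with quantile normalization 8 of the 10 were called, all lower. Of these, 7 symbols were found in the gene table on the chromosome the ID gives. GluA1, the most abundant glutelin, went from 15725 ± 190.1 to 13400.1 ± 129 FPKM. GluD1 fell 2.36-fold, from 1377 ± 12.7 to 584 ± 10.9 FPKM, GluA3 1.51-fold, from 12868 ± 181 to 8547 ± 71.8 FPKM, and GluB2 1.45-fold, from 10619 ± 115 to 7337 ± 3.46 FPKM. Of 10 prolamin IDs, 8 were tested, of which 5 were lower and 3 not called (median log2 change −0.28), and with quantile normalization 6 were lower and 2 higher. The prolamin IDs rest on general knowledge of rice genes alone. The summed FPKM of the glutelins was 61462 to 62727 in WT and 46561 to 47048 in nf-yc11.

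Few alpha-amylase genes, whose enzymes break down starch, were measurable. Of 10 IDs for alpha-amylases and the alpha-amylase/subtilisin inhibitor RASI, 3 passed the filter on low values. RAmy3E, an alpha-amylase gene, had 106 ± 2.60 FPKM in WT and 104.8 ± 0.552 in nf-yc11 and was not called (adjusted p = 0.752, limma). It was called lower with size factors, TMM factors, quantile normalization and voom (log2 changes −0.09 to −0.12). With the total without the 100 most abundant features it was not (adjusted p = 0.0962, limma). RASI, an inhibitor of a different protein family, was at 224, 227 and 223 FPKM in WT and 422, 501 and 441 FPKM in nf-yc11. It rose 2.02-fold (log2 change 1.01 ± 0.06 SE, adjusted p = 4.14e-05, limma).

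Of 7 regulators of storage protein genes, OS05G0304800 and OS10G0191900 among them, 5 were lower and 2 not called (median log2 change −0.23). Among them NF-YB1, an NF-Y subunit of the endosperm, fell 1.83-fold from 439 ± 14.7 to 239.5 ± 4.42 FPKM (log2 change −0.87 ± 0.03 SE, adjusted p = 7.93e-06, limma). Its symbol was found in the gene table, and the other 6 were not.

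Markers of other seed parts were measured beside these changes. The summed FPKM of 7 embryo and aleurone markers was 4779 to 5125 in WT and 5414 to 5799 in nf-yc11, so the ranges did not overlap. Of 6 tested, 1 was higher, 3 lower and 2 not called. The 1 called higher went from 2025 ± 13.4 FPKM in WT to 2583 ± 118 in nf-yc11, which was most of the rise of the sum. The symbol of that marker was not found in the gene table. OSH1, an embryo meristem gene, stood at 0.805 ± 0.257 and 0.939 ± 0.343 FPKM. The sum of 6 photosynthesis markers of green pericarp was 2019 to 2027 in WT and 1818 to 1930.3 in nf-yc11, with 3 lower, 1 higher (0 with TMM factors) and 2 not called. The part of other tissues in the members' changes was not tested. In bulk RNA, fewer cells of a type and less RNA per cell cannot be told apart. Near-identical copies can share reads, and the authors' handling of such reads is not given in the sources used here; the split between members is uncertain to that extent.

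By the profile over the 6 libraries, 1185 features that averaged 100 FPKM or more were compared with the members, as the mean absolute distance between log2 values centred on each gene's own mean. The closest to the summed members was OS04G0586100, at a distance of 0.0045, with 122.7 FPKM in WT and 133.7 FPKM in nf-yc11. The closest to OS07G0215500 was OS01G0253300, at 0.012, with 139.98 and 193 FPKM. The member nearest to OS07G0215500 was OS07G0214600, at 0.086. Among the members, OS07G0214300 and OS07G0216600 were nearest to each other, at 0.029. Features outside the cluster were closer to each of them, at 0.015 for OS07G0214300 and 0.013 for OS07G0216600.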

How the data were processed

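RNA of rice endosperm was sequenced in 3 WT and 3 nf-yc11 libraries, grouped by the labelled genotype. The authors deposited 1 table of FPKM values per library. The submitters' processing notes name DESeq, HISAT2 2.0.5 and CASAVA 1.7, without saying what each did. For the counter, strand setting, build and annotation, the entry is "not given in the sources used here"; coordinates and sequences are not printed. Members and lists were chosen with earlier results of these data known.

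Whole reads, recovered from the FPKM steps for 36189 of 36189 features above 0 (within 0.0001 of a whole number), gave the depth. In simulated data the same recovery was exact for 96.8% of features, so a whole number is not always the true one. limma 3.58.1 (R 4.3.3) with a variance trend was applied to log2(FPKM + 1), a scale that understates the change of low genes, for features averaging 1 FPKM or more. Other folds divide mean FPKM. The test was checked on simulated data, in which far fewer features were changed than are called in the real data. Beyond counting error, every simulated feature also had the same spread between libraries, so the rates need not hold for the real data. In the simulation the test called 25% of features with a true log2 change of 0.3 and 51.0% of those with 0.5. Of unchanged features it called 0.046%. Sums, shares and ratios had exact permutation tests (scipy 1.17.1, Python 3.11.15).

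By rule, the genes to name were the members, list genes whose symbol a RefSeq table holds on the right chromosome (the most abundant and up to 3 with the smallest p), neighbours with the largest change and the 3 closest profiles. Of IDs without a symbol only 2 that rose and 2 that fell are printed, besides the members, OS05G0304800 and OS10G0191900. Alternatives were a pseudocount of 0.1, a filter of 5 FPKM or none, 4 other scalings (size factors, unweighted TMM, quantiles, and a total leaving out the top 100), no variance trend, voom on recovered reads, RAP IDs only, a replicate block, and leaving out each library.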

Additional observations from a re-analysis of the deposited data

How the results depend on the processing

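OS07G0214600 and OS07G0215500 kept their direction and call under each of 17 alternatives, and OS07G0214300 and OS07G0216600 under 16, all but quantile normalization. That method replaces each value by the mean of its rank, and few features share the members' range. It gave log2 changes of 0.088 for OS07G0213800, −0.068 for OS07G0214100 and 0.14 for OS07G0216600, each with its sign turned, and turned that of the sum of the 6 members without OS07G0215500 (0.22). OS07G0216700, not called on the deposited scale, turned to −0.031 with size factors, −0.033 with TMM factors, −0.031 with voom, and to −0.013 with the total without the 100 most abundant features. OS07G0214100 lost its call with each scaling by a factor, voom and no variance trend (adjusted p = 0.0984 to 0.214, and 0.0730 without the trend, limma), and OS07G0213800 gained one in 7 settings, in 6 as lower and with quantile normalization as higher. Members called numbered 4 to 6 of 7, with 2 higher and 3 lower under factor scalings and voom, and 5 higher and 1 lower under quantile normalization.

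Over all features 10842 were called, 6586 higher and 4256 lower, against 5434 and 5296 (size factors), 5411 and 5313 (TMM factors), 5403 and 5273 with quantile normalization, and 5823 and 5795 with voom. When 1 library was left out, 9075 to 9686 features, 5 or 6 members, and 10 to 14 neighbours were called. Libraries that share a number had deviations from their group means that correlated at −0.050, 0.0042 and −0.048. These values show no shared deviation in expression. They cannot tell whether libraries of a number were grown or prepared together, which the labels do not say. The replicate block called 9948 features and the same number of members, 5. In it 6 shares moved one way in all 3 numbers, which any pairing would give, since the groups do not overlap for these shares. The causes were not tested.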
